A study of Mus musculus with 9 samples.

Results

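Voltage-gated potassium channels are assembled from 4 pore-forming subunits, and this account concerns 6 such subunit genes in the mouse lumbar dorsal root ganglion: Kcnb2, which encodes Kv2.2, Kcnc1 and Kcnc4, which encode Kv3.1 and Kv3.4, and Kcns1, Kcns3 and Kcnv1, which encode the silent subunits Kv9.1, Kv9.3 and Kv8.1. They were taken by gene symbol, and all 6 were found among the 38926 genes of the count files. The dorsal root ganglia of segments L3, L4 and L5 on the treated side hold the cell bodies of sensory neurons that reach the hind paw, with satellite glia, Schwann cells, vessels and immune cells around them. The animals were male C57BL/6 mice aged 8 to 10 weeks, labelled wild type in every group. They had received cisplatin into the plantar paw to a cumulative 40 µg, oxaliplatin by the same route to a cumulative 40 µg, or vehicle. Each group had 3 libraries of total RNA, read as single ends of 75 nucleotides, and each library pooled the ganglia of 4 animals, so the spread given here is between pools and not between mice.

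Kv2 channels open during an action potential and carry much of the delayed rectifier current that repolarizes neurons and limits repetitive firing. Kv3 channels open only at strongly depolarized potentials and close fast, which keeps action potentials short: Kv3.1 is known from fast-firing neurons, and Kv3.4, which inactivates quickly, has been described in rat nociceptors. The silent subunits form no channel on their own. They join Kv2 subunits in mixed channels and change how these open and close. In the rat, Kv9.1 has been described in large myelinated sensory neurons, and in humans variants of KCNS1 have been linked to pain.

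The mouse genes lie apart from one another on build GRCm38 (GENCODE M21), and all are protein-coding. Kcnb2 is on chromosome 1 (15287254 to 15723750, plus strand, ENSMUSG00000092083), spans 436.5 kb and has 15.16 kb of exon sequence, the most of the 6. Kcnc1 is on chromosome 7 (46396497 to 46438704, plus strand, ENSMUSG00000058975) with 9.46 kb of exons, and Kcnc4 on chromosome 3 (107438303 to 107459552, minus strand, ENSMUSG00000027895) with 3.67 kb. Kcns1 is on chromosome 2 (164163619 to 164171113, minus strand, ENSMUSG00000040164) with 2.71 kb of exons. Kcns3 is on chromosome 12 (11090202 to 11151056, minus strand, ENSMUSG00000043673) with 3.16 kb, and Kcnv1 on chromosome 15 (45106284 to 45114920, minus strand, ENSMUSG00000022342) with 4.59 kb. No other annotated gene shared exon sequence with any of the 6, so reads of an annotated neighbour could not be counted with theirs; unannotated antisense reads were not examined.

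RefSeq promoter windows, from 250 bases before to 50 bases after a listed start on GRCm38.p6, were at hand for 4 of the 6 genes. They are printed to show the RefSeq start regions of both Kv3 genes beside those of 2 silent subunit genes. The Kcnc4 window lies wholly inside the gene span given above, downstream of the start annotated there. Capitals mark the GC box GGGCGG, read on either strand.
Kcnc1 (chr7:46396218-46396517, plus strand): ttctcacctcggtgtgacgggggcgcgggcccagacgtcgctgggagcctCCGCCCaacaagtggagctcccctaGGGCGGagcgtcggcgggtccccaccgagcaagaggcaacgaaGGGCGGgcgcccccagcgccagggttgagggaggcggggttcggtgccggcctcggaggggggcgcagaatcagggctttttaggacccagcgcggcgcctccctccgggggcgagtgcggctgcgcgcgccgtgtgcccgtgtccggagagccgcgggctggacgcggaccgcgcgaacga
Kcnc4 (chr3:107458849-107459148, minus strand): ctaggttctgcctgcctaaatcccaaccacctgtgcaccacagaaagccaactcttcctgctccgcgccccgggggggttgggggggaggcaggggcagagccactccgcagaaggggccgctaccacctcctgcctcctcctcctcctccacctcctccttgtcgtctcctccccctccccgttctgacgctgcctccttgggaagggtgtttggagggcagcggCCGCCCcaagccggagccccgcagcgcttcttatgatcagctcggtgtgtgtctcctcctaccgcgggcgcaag
Kcns1 (chr2:164171064-164171363, minus strand): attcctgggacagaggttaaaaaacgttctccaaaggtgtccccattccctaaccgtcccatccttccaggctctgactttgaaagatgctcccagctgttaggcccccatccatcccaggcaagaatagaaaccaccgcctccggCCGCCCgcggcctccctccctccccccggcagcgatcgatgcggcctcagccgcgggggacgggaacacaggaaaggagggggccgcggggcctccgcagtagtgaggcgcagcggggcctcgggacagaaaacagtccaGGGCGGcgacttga
Kcns3 (chr12:11150793-11151092, minus strand): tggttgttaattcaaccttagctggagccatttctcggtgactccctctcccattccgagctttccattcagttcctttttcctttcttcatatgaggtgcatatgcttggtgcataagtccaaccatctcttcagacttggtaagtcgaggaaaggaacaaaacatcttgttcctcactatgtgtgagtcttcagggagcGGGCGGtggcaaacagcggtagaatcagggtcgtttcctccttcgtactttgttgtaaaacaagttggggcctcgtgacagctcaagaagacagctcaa

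The Kcnc1 window held 3 GC boxes and 41 CpG pairs, the Kcnc4 window 1 GC box and 17 CpG pairs, the Kcns1 window 2 GC boxes and 22 CpG pairs, and the Kcns3 window 1 GC box and 9 CpG pairs. RefSeq lists another Kcns3 start further downstream, whose window (chr12:11150324-11150623) held 3 GC boxes and 32 CpG pairs. Across all 32851 windows of 300 bases in the table, 35.7% held a GC box and the median window had 7 CpG pairs. The TATA box TATAAA, the CCAAT box CCAAT and the E-box CACGTG, each searched on both strands, were in none of the 5 windows, against 13.6%, 37.4% and 7.15% of all windows. The cyclic AMP response element half-site TGACG was in the Kcnc1 and Kcnc4 windows and in neither Kcns1 nor Kcns3, and 20.8% of all windows held it. These matches describe the letters alone.

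Reads assigned to genes numbered 31971613 to 38168902 in the cisplatin libraries, 35520144 to 38808509 in the oxaliplatin libraries and 22819185 to 32022672 in the vehicle libraries. Vehicle library 2 stood apart, in which multiply aligned reads were 51.0% of all recorded reads and 47.7% of unique reads lay outside genes; the results of the 6 genes against vehicle are therefore also given without it. Reads outside genes made up 18.6 to 19.1% of unique reads in cisplatin, 16.6 to 17.8% in oxaliplatin and 26.2 to 47.7% in vehicle, so this share moved with the comparison and its part in the results was not tested. Neuronal markers were present in all libraries. Tubb3, a neuronal tubulin, was at 2283 to 2595 CPM in cisplatin, 2379 to 2514 CPM in oxaliplatin and 2177 to 2341 CPM in vehicle. Of the markers of central nervous tissue, Olig2, an oligodendrocyte lineage factor of the spinal cord, had 0 to 4 reads in any library, and Mog 0 to 14. Aqp4 was present in all, at 14.8 to 15.5 CPM in cisplatin, 14.5 to 15.8 CPM in oxaliplatin and 17.6 to 19.2 CPM in vehicle. The 4 tested markers of this list summed to 29.7 to 52.3 CPM in cisplatin, 25.3 to 34.3 CPM in oxaliplatin and 25.6 to 39.6 CPM in vehicle. A share of central tissue was not tested. Rbfox3, which encodes the neuronal nuclear antigen NeuN, had 79.1 to 95.5 CPM in cisplatin and 82.1 to 89.9 CPM in oxaliplatin, against 109 to 118 CPM in vehicle. CPM are counts scaled to a common library size after TMM scaling, which sets most genes level between libraries.

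Per length of exon, the silent subunits Kcns3 and Kcns1 had the highest levels of the 6 genes in every group. Kcns3 had 22.5 ± 0.444 CPM per kb in cisplatin, 22.3 ± 0.580 in oxaliplatin and 22.6 ± 1.13 in vehicle (SD, n = 3 libraries each). Kcns1 had 19.5 ± 1.14 CPM per kb in cisplatin, 21.6 ± 0.457 in oxaliplatin and 21.5 ± 1.26 in vehicle, so its libraries overlapped those of Kcns3 in oxaliplatin and vehicle but not in cisplatin. The order below them differed between groups. Kcnv1 stood above Kcnb2 in cisplatin, with 11.6 ± 0.817 against 9.26 ± 0.762 CPM per kb, whereas in vehicle it had 13.1 ± 0.486 against 16.6 ± 2.87 for Kcnb2, with overlapping libraries. In oxaliplatin the pair overlapped as well, at 10.4 ± 0.771 for Kcnv1 and 9.72 ± 1.33 for Kcnb2. Kcnc4 had 7.32 ± 0.841 CPM per kb in cisplatin, 8.00 ± 0.824 in oxaliplatin and 10.4 ± 1.20 in vehicle. Kcnc1 was the lowest of the 6 throughout, at 3.64 ± 0.551 CPM per kb in cisplatin, 3.99 ± 0.520 in oxaliplatin and 6.19 ± 0.888 in vehicle.

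**Figure D1:**
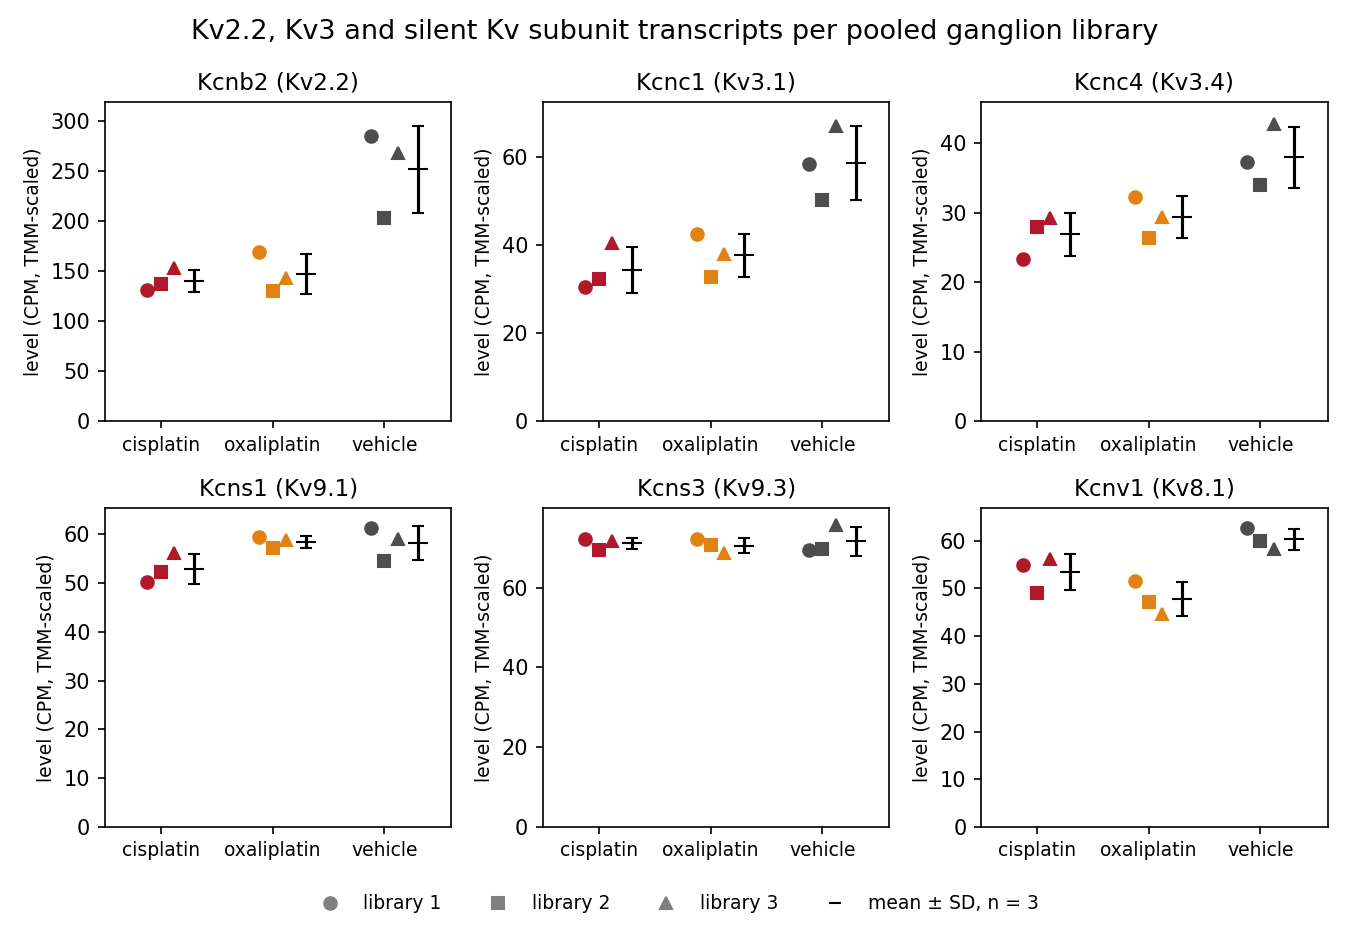
Level of each gene (y axis, TMM-scaled CPM) in the 9 pooled libraries, by group (x axis); each symbol is 1 library and the bar beside it is the group's mean ± SD. The cisplatin and oxaliplatin points of Kcnb2, Kcnc1 and Kcnc4 lie below all vehicle points, while those of Kcns3 lie among them.

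Cisplatin was set against vehicle to see how ganglion transcripts stand after a drug that causes sensory neuropathy. The conducting subunits were lower: Kcnb2 stood at 55.7% of the vehicle level, Kcnc1 at 58.5% and Kcnc4 at 70.4%. The silent subunits did not pass the test. In all, 3 of the 6 genes were called lower (edgeR, adjusted p under 0.05), where 38.7% of the 17348 genes tested were called, 22.9% lower and 15.8% higher. The ranges of the groups did not overlap, with cisplatin lower, in 4 of the 6 genes; over all genes tested this was so in 48.0%, with cisplatin lower in 26.7% and higher in 21.3%.

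Kcnb2 had 131, 137 and 153 CPM in cisplatin libraries 1 to 3, against 285, 203 and 268 CPM in vehicle libraries 1 to 3. Every cisplatin library lay below the lowest vehicle library, which was library 2. The log2 fold change was -0.85 (SE 0.12, 95% interval -1.11 to -0.58, edgeR adjusted p = 0.000287), and -0.96 without vehicle library 2 (edgeR adjusted p = 5.08e-05). Kcnb2 encodes a Kv2 pore subunit that works alone or together with the silent subunits.

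Kcnc1, the Kv3.1 gene, had 30.6, 32.3 and 40.4 CPM in cisplatin, against 58.4, 50.3 and 67.1 CPM in vehicle. Again no library of 1 group reached the other. Its log2 fold change was -0.77 (SE 0.13, interval -1.05 to -0.50, edgeR adjusted p = 0.000590), and -0.85 without vehicle library 2 (edgeR adjusted p = 0.000282). Kcnc4, the gene of the fast-inactivating Kv3.4, had 23.4, 27.9 and 29.3 CPM in cisplatin, against 37.3, 34.0 and 42.7 CPM in vehicle. Cisplatin library 1 was the lowest and vehicle library 3 the highest, and the groups did not overlap. The change was -0.51 (SE 0.11, interval -0.74 to -0.28, edgeR adjusted p = 0.00275), and -0.56 without vehicle library 2 (edgeR adjusted p = 0.00144).

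The silent subunit genes gave smaller differences. Kcns1 had 50.2, 52.3 and 56.2 CPM in cisplatin, against 61.2, 54.5 and 58.9 CPM in vehicle, and cisplatin library 3 lay above vehicle library 2. Its log2 fold change was -0.14 (SE 0.06, interval -0.27 to -0.01, edgeR adjusted p = 0.0729). Kcns1 passed the threshold without vehicle library 2 (-0.17, edgeR adjusted p = 0.0348), which brought the number of called genes to 4. Kcns3 had 72.1, 69.5 and 71.6 CPM in cisplatin, against 69.3, 69.7 and 75.7 CPM in vehicle, with the groups intermixed. The interval of its change reached from -0.12 to 0.10 around -0.01 (SE 0.05, edgeR adjusted p = 0.871; -0.01 without vehicle library 2, edgeR adjusted p = 0.870). Kcnv1 had 54.9, 49.1 and 56.1 CPM in cisplatin, against 62.7, 60.0 and 58.3 CPM in vehicle. These groups did not overlap, yet the change of -0.18 (SE 0.07, interval -0.32 to -0.03) missed the threshold (edgeR adjusted p = 0.0546; -0.16 and 0.0981 without vehicle library 2).

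Oxaliplatin was compared with the same vehicle libraries, so both drug comparisons share their 3 vehicle values. Kcnb2 stood at 58.4% of the vehicle level, Kcnc1 at 64.0%, Kcnc4 at 76.8% and Kcnv1 at 79.3%. These 4 of the 6 genes were called lower, where 41.6% of all genes tested were called, 24.1% lower and 17.5% higher. In those 4 genes the ranges of the groups also did not overlap, as in 50.5% of genes tested, with oxaliplatin lower in 27.4% and higher in 23.1%. The same number of genes was called without vehicle library 2.

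Kcnb2 had 169, 130 and 143 CPM in oxaliplatin libraries 1 to 3, against the vehicle values of 285, 203 and 268 CPM. Oxaliplatin library 1 was the highest of its group and still below vehicle library 2. The log2 fold change was -0.78 (SE 0.12, interval -1.04 to -0.51, edgeR adjusted p = 0.000442; -0.89 and 6.43e-05 without vehicle library 2). Kcnc1 had 42.5, 32.7 and 38.0 CPM in oxaliplatin, against 58.4, 50.3 and 67.1 CPM in vehicle. It changed by -0.64 (SE 0.13, interval -0.92 to -0.37, edgeR adjusted p = 0.00168; -0.72 and 0.000730 without vehicle library 2). All its oxaliplatin libraries lay below all its vehicle libraries. Kcnc4 had 32.3, 26.3 and 29.4 CPM in oxaliplatin, against 37.3, 34.0 and 42.7 CPM in vehicle. The gap between the groups was narrow, from 32.3 to 34.0 CPM. Its change of -0.38 (SE 0.10, interval -0.61 to -0.15, edgeR adjusted p = 0.0121; -0.43 and 0.00578 without vehicle library 2) rested on single libraries: it was -0.31 without oxaliplatin library 2 (edgeR adjusted p = 0.0531) and -0.29 without vehicle library 3 (edgeR adjusted p = 0.0613).

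Among the silent subunits, Kcnv1 fell after oxaliplatin. It had 51.6, 47.2 and 44.6 CPM in oxaliplatin, against 62.7, 60.0 and 58.3 CPM in vehicle. Every oxaliplatin library was below every vehicle library, with a log2 fold change of -0.34 (SE 0.07, interval -0.48 to -0.19, edgeR adjusted p = 0.00206; -0.32 and 0.00502 without vehicle library 2). Kcns1 had 59.5, 57.1 and 58.8 CPM in oxaliplatin, against 61.2, 54.5 and 58.9 CPM in vehicle. Kcns3 had 72.2, 70.8 and 68.6 CPM in oxaliplatin, against 69.3, 69.7 and 75.7 CPM in vehicle. Both genes had intermixed groups, and the intervals of their changes were narrow: -0.12 to 0.13 for Kcns1 (edgeR adjusted p = 0.975) and -0.13 to 0.08 for Kcns3 (edgeR adjusted p = 0.739). Without vehicle library 2 both changes were -0.02.

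**Figure D2:**
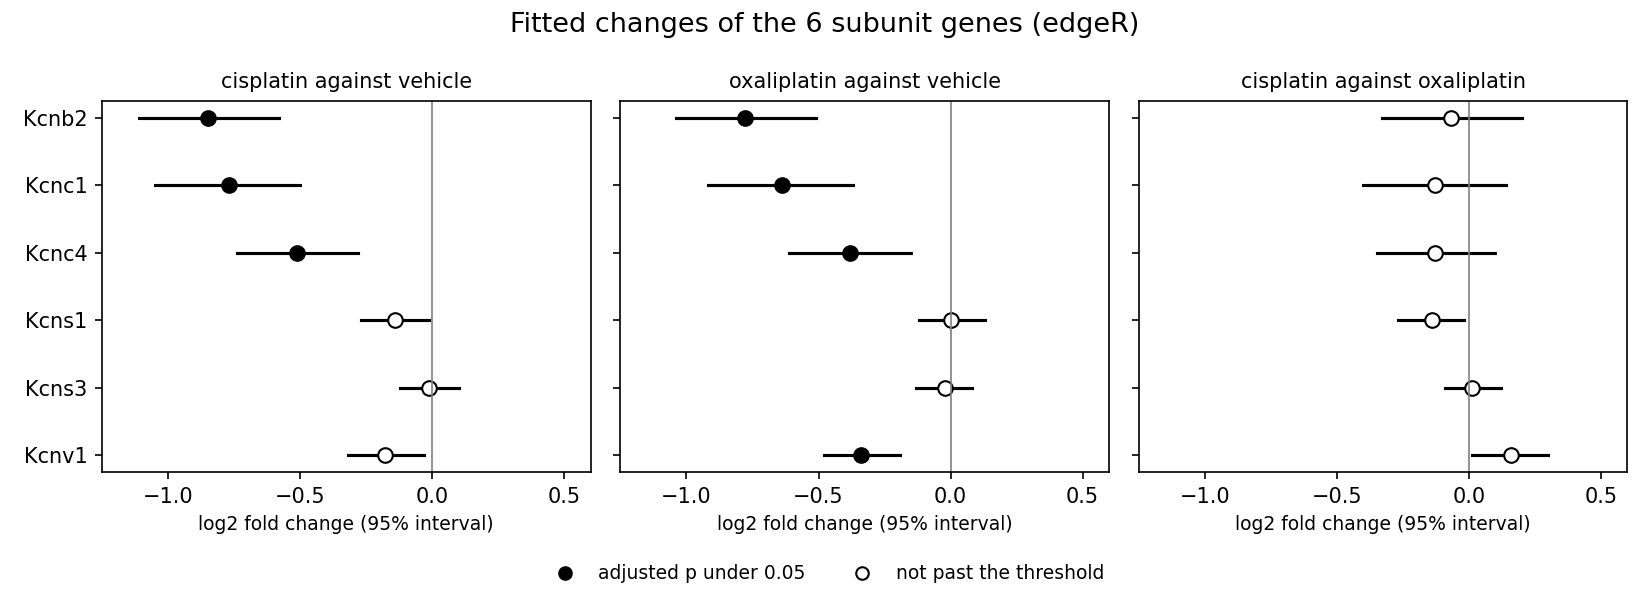
Log2 fold changes (x axis) of the 6 genes (y axis) in the 3 comparisons from the edgeR fit of all 9 libraries; lines are 95% intervals and filled points have an adjusted p under 0.05. Kcnb2, Kcnc1 and Kcnc4 are filled and left of 0 in both comparisons with vehicle, Kcnv1 only in that of oxaliplatin, and no point is filled between the drugs.

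Cisplatin was compared with oxaliplatin directly, since a call in 1 comparison with vehicle and not in the other does not show that the drugs differ. None of the 6 genes was called (edgeR; 0 also with DESeq2 and with limma-voom), where 0.0115% of genes tested were called, and 2 had an unadjusted p under 0.05, as did 6.4% of genes tested. One was Kcnv1, which had 54.9, 49.1 and 56.1 CPM in cisplatin, against 51.6, 47.2 and 44.6 CPM in oxaliplatin. The groups overlapped, and the difference was 0.16 (SE 0.07, interval 0.01 to 0.30, edgeR adjusted p = 0.767). The other was Kcns1, at 50.2, 52.3 and 56.2 CPM in cisplatin, against 59.5, 57.1 and 58.8 CPM in oxaliplatin, with a difference of -0.14 (interval -0.27 to -0.02, edgeR adjusted p = 0.767). Its groups did not overlap, as in 14.1% of genes tested, with cisplatin lower in 6.10% and higher in 8.04%. For the conducting subunits the intervals of the difference were -0.33 to 0.20 (Kcnb2), -0.40 to 0.14 (Kcnc1) and -0.35 to 0.10 (Kcnc4), and for Kcns3 it was -0.09 to 0.12.

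The balance of subunits can be read inside a library, where no scaling between libraries enters. For every Kcnb2 read there were 0.552, 0.506 and 0.467 Kcns3 reads after cisplatin and 0.427, 0.547 and 0.478 after oxaliplatin, against 0.243, 0.344 and 0.282 after vehicle. Kcns1 reads per Kcnb2 read ranged from 0.367 to 0.383 in cisplatin and 0.352 to 0.441 in oxaliplatin, against 0.215 to 0.269 in vehicle. Kcnv1 reads per Kcnb2 read ranged from 0.358 to 0.420 in cisplatin and 0.305 to 0.364 in oxaliplatin, against 0.217 to 0.296 in vehicle. All 6 drug libraries thus lay above all 3 vehicle libraries in each of these ratios, and vehicle library 2 was the vehicle library nearest to them. Kcnb2 has far longer exons than the silent subunit genes, so the trend of change with exon length described further on enters these ratios. With that trend removed the log2 fold changes for cisplatin were -0.32 for Kcnb2, against -0.08 for Kcns3, -0.22 for Kcns1 and -0.08 for Kcnv1, and for oxaliplatin -0.22 for Kcnb2, against -0.08 for Kcns3, -0.07 for Kcns1 and -0.18 for Kcnv1, so most of the distance between Kcnb2 and the silent subunits was gone. The Kv3 genes gave a smaller shift in their ratio. Kcnc4 reads per Kcnc1 read were 0.725 to 0.863 in cisplatin and 0.761 to 0.805 in oxaliplatin, against 0.636 to 0.675 in vehicle. Kcnc1 has longer exons than Kcnc4, so the trend enters this ratio too. With the trend removed the changes were -0.58 for Kcnc1 and -0.53 for Kcnc4 after cisplatin. After oxaliplatin they were -0.47 and -0.41, so little of the Kv3 shift was left. All these read ratios were formed after the levels had been seen and carry no test. In bulk tissue, fewer cells that express a gene and less RNA per cell cannot be told apart.

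**Figure D3:**
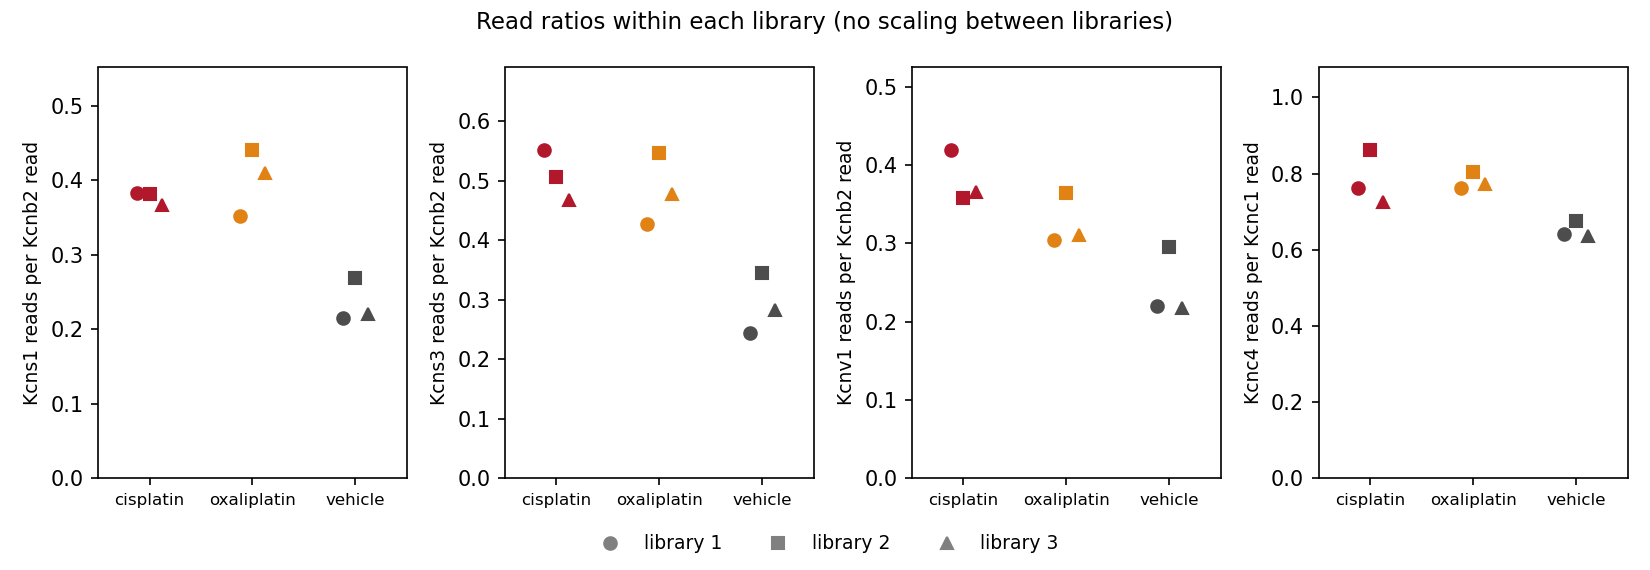
Reads of 1 gene per read of another (y axis) within each library, by group (x axis); each symbol is 1 library. The Kcns1, Kcns3 and Kcnv1 reads per Kcnb2 read are higher in all 6 drug libraries than in the 3 vehicle libraries.

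The genes differ in exon length, and so did the response of all genes. Across 94.2% of the genes tested, those with an annotated length, the Spearman correlation of log2 fold change with exon length was -0.41 for cisplatin and -0.41 for oxaliplatin, a description over genes that share the same libraries. Genes were put into 10 classes of exon length, and the middle of a class is given by its quartiles. Kcnb2, in the class of longest exons, changed by -0.85 after cisplatin where the quartiles were -0.57 and -0.11. Kcnc1 changed by -0.77 in a class with quartiles of -0.39 and 0.02. Kcnc4, of ordinary length, changed by -0.51 in a class with quartiles of -0.14 and 0.19. All 3 conducting subunits were therefore below the quartile range of genes of like length, whereas Kcns3 lay inside it (-0.01 beside -0.09 and 0.23). Kcns1 (-0.14 beside -0.09 and 0.23) and Kcnv1 (-0.18 beside -0.17 and 0.17) lay just below theirs. After oxaliplatin Kcnb2 (-0.78 beside -0.55 and -0.11), Kcnc1 (-0.64 beside -0.40 and 0.02), Kcnc4 (-0.38 beside -0.15 and 0.19) and Kcnv1 (-0.34 beside -0.19 and 0.16) lay below their ranges, while Kcns1 and Kcns3 lay inside (0.00 and -0.02 beside -0.10 and 0.24).

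With each library's trend with exon length and GC content removed, the Kcnb2 change shrank to -0.32 for cisplatin (edgeR adjusted p = 0.0151) and -0.22 for oxaliplatin (edgeR adjusted p = 0.0741), so the oxaliplatin call was lost. Kcnc1 kept -0.58 for cisplatin (edgeR adjusted p = 0.000695) and -0.47 for oxaliplatin (edgeR adjusted p = 0.00233). Kcnc4 hardly moved, at -0.53 (edgeR adjusted p = 0.00185) and -0.41 (edgeR adjusted p = 0.00851). Kcnv1 came to -0.18 for oxaliplatin (edgeR adjusted p = 0.0354), and Kcns1 passed for cisplatin at -0.22 (edgeR adjusted p = 0.0259).

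**Figure D4:**
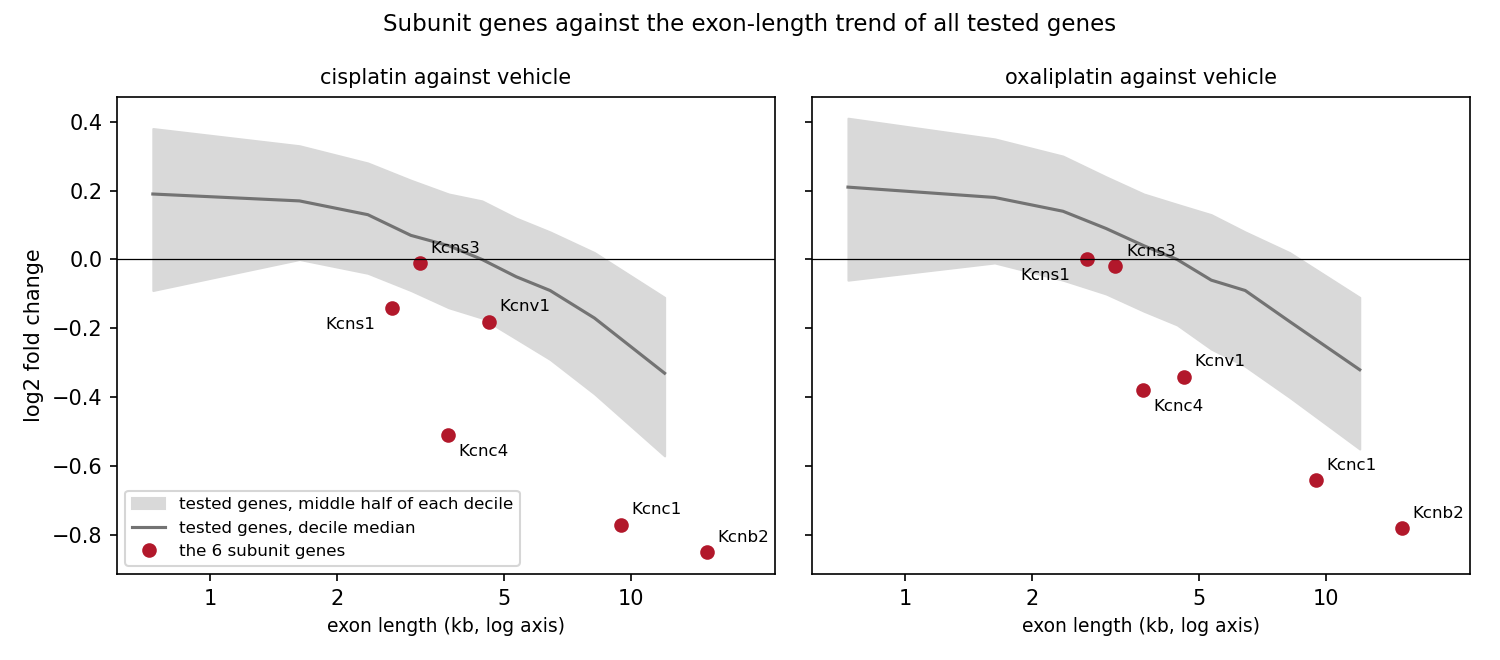
Log2 fold change against vehicle (y axis) by exon length (x axis, kb, log scale) for the 6 genes (points), beside the median (line) and quartile range (band) of all tested genes in 10 length classes. Kcnb2, Kcnc1 and Kcnc4 lie below the band in both panels and Kcns3 inside it.

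Scaling mattered for the smaller changes. When libraries were scaled by their totals only, the median gene stood at 0.29 for cisplatin and 0.30 for oxaliplatin, and the calls over all genes turned from 2744 higher and 3971 lower to 5987 higher and 917 lower for cisplatin, and from 3043 and 4178 to 6408 and 996 for oxaliplatin. Kcnb2 (-0.58, edgeR adjusted p = 0.00172) and Kcnc1 (-0.50, edgeR adjusted p = 0.00470) were still called lower after cisplatin, and after oxaliplatin at -0.50 (edgeR adjusted p = 0.00600) and -0.36 (edgeR adjusted p = 0.0414). Kcnc4 was not, at -0.23 (edgeR adjusted p = 0.211) and -0.09 (edgeR adjusted p = 0.648), nor was Kcnv1 after oxaliplatin (-0.03, edgeR adjusted p = 0.870). Kcns1, Kcns3 and Kcnv1 turned above 0 for cisplatin, at 0.14, 0.28 and 0.12, without passing, which is below the shift of the median gene in each. When vehicle library 2 was also left out, the median of all genes was 0.16 for cisplatin and 0.17 for oxaliplatin, and Kcnc4 was called again at -0.42 (edgeR adjusted p = 0.00350) and -0.28 (edgeR adjusted p = 0.0253), while Kcnv1 after oxaliplatin was at -0.17 (edgeR adjusted p = 0.0520).

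**Figure D5:**
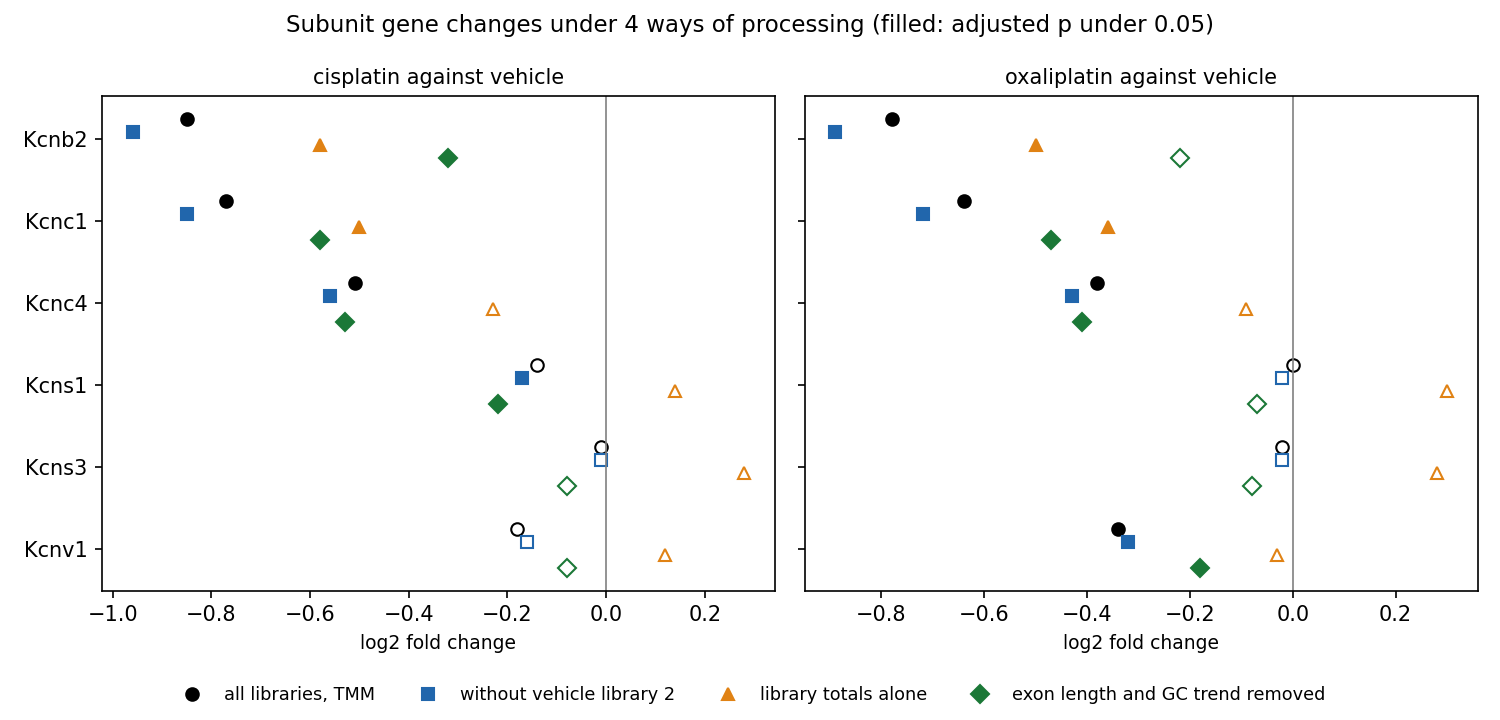
Log2 fold change against vehicle (x axis) of the 6 genes (y axis) under 4 ways of processing, filled where the adjusted p is under 0.05. Kcnb2 and Kcnc1 stay left of 0 under all 4, and the Kcns1 and Kcns3 points move to the right of 0 under library totals alone.

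Among other genes of these families, the silent Kv6.3 gene Kcng3 had 15.8 ± 1.24 CPM in cisplatin and 17.1 ± 2.34 CPM in oxaliplatin, against 30.6 ± 5.72 CPM in vehicle (SD, n = 3). It changed by -0.96 and -0.85 (edgeR adjusted p = 0.000192 and 0.000356), and these calls were kept under all 21 alternatives. The silent subunit genes Kcns2, of Kv9.2, and Kcnf1, of Kv5.1, did not pass in either comparison with vehicle. Kcns2 had 4.22 ± 0.462 CPM in cisplatin and 4.03 ± 0.514 CPM in oxaliplatin, against 4.48 ± 0.360 CPM in vehicle. Kcnf1 had 4.91 ± 0.622 CPM in cisplatin and 4.77 ± 0.399 CPM in oxaliplatin, against 4.68 ± 0.973 CPM in vehicle. Kcng4, of Kv6.4, and Kcng2, of Kv6.2, did not pass with TMM scaling, but under library totals alone Kcng4 was called higher after both drugs (0.58 and 0.51) and Kcng2 after oxaliplatin (0.50).

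Kcnc2, which encodes Kv3.2, had 30.1 ± 0.711 CPM in cisplatin and 31.0 ± 1.23 CPM in oxaliplatin, against 41.0 ± 3.14 CPM in vehicle. It changed by -0.45 and -0.41 (edgeR adjusted p = 0.000234 and 0.000375), and was not called under library totals alone. Kcng1, of Kv6.1, was rare at 1.53 ± 0.379 CPM in cisplatin and 1.32 ± 0.326 CPM in oxaliplatin, against 2.49 ± 0.254 CPM in vehicle; it was called in both (-0.69, edgeR adjusted p = 0.0263, and -0.90, edgeR adjusted p = 0.00688), but after cisplatin the call failed when vehicle library 1, 2 or 3 was left out (edgeR adjusted p = 0.0518, 0.0612 and 0.0670) and without cisplatin library 1 or 2 (edgeR adjusted p = 0.0617 and 0.105). Kcnv2, of Kv8.2, had 0 to 3 reads in any library, at or under the detection floor of 3 reads.

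Of 10 known partners of these channels 8 were tested. After cisplatin 1 rose and 1 fell, and after oxaliplatin 1 rose, where 38.7% and 41.6% of all genes were called; the medians were 0.06 and 0.12. Under library totals alone 3 were called higher for cisplatin and 4 for oxaliplatin, where 5987 and 6408 of all 17348 genes tested were called higher. The partner medians under that scaling were 0.35 and 0.42, beside 0.29 and 0.30 for all genes. Amigo1, an adhesion protein that accompanies Kv2 channels, had 151 ± 7.73 CPM in cisplatin and 158 ± 6.16 CPM in oxaliplatin, against 177 ± 20.2 CPM in vehicle. It was called lower for cisplatin (-0.23, edgeR adjusted p = 0.0278), not for oxaliplatin (-0.17, edgeR adjusted p = 0.0887). For cisplatin it stood at 0.05 under library totals. The call of Amigo1 as lower was lost under library totals, with or without vehicle library 2, and with no count filter. It was also lost without cisplatin library 1 or 2 or vehicle library 1 or 3. Vapa and Vapb, which tie Kv2 channels to the endoplasmic reticulum, did not pass, with cisplatin intervals of -0.18 to 0.06 and -0.12 to 0.15. Kcne3, an accessory subunit that can join Kv3.4, was called higher after cisplatin at 0.750 ± 0.0892 CPM, against 0.475 ± 0.134 CPM in vehicle (0.71, edgeR adjusted p = 0.0477), but not with DESeq2 (adjusted p = 0.135) or without vehicle library 3 (edgeR adjusted p = 0.143), nor under most other alternatives. Amigo3, a relative of Amigo1, was called higher after oxaliplatin (0.17, edgeR adjusted p = 0.0224), and was at 0.04 with the length and GC trend removed and not called without oxaliplatin library 3 (edgeR adjusted p = 0.0858).

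Many other voltage-gated potassium channel genes were also lower. Of 24 pore subunits of the Kv1, Kv4, Kv7 and EAG-related families, 22 were tested: 13 fell after cisplatin and 14 after oxaliplatin, where 22.9% and 24.1% of all genes were called lower, and the other 9 and 8 did not pass. The medians were -0.38 and -0.36 (-0.43 and -0.39 without vehicle library 2), and among those that did not pass Kcna5, of Kv1.5, was at 0.23 and 0.09. Under library totals 7 fell after cisplatin and 4 after oxaliplatin, where 917 and 996 of all 17348 genes tested were called lower. The medians of these channel genes were then -0.10 and -0.06. Those of smallest p were the same 3 for both drugs. Kcnd1, of the A-type channel Kv4.1, had 115 ± 12.0 CPM in cisplatin and 117 ± 10.5 CPM in oxaliplatin, against 205 ± 15.6 CPM in vehicle. Kcnh5 changed by -1.05 and -1.06, and Kcnh7, of the ERG family, by -0.96 and -0.97. With the length and GC trend removed Kcnh7 came to -0.44 and -0.42, while Kcnd1 stood at -0.84 and -0.82 and Kcnh5 at -1.09 and -1.1. No test of a difference between these genes and the Kv2 and Kv3 genes was made.

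Markers of the cells that could carry these transcripts moved as well. Of 20 pan-neuronal genes 9 fell and 1 rose after cisplatin, where 22.9% of all genes were called lower and 15.8% higher, and 10 fell and 1 rose after oxaliplatin, where these shares were 24.1% and 17.5%. Their medians were -0.17 and -0.20, with a summed level of 17219 to 19351 CPM in cisplatin and 17933 to 18677 CPM in oxaliplatin, against 18967 to 20083 CPM in vehicle. Of 16 markers of large sensory neurons 10 fell after cisplatin and 8 after oxaliplatin, with medians of -0.30 and -0.26. Their summed level was 2853 to 3413 CPM in cisplatin and 3021 to 3458 CPM in oxaliplatin, against 3567 to 3995 CPM in vehicle. Ntrk3, the neurotrophin-3 receptor, changed by -1.17 and Etv1, a proprioceptor transcription factor, by -0.91 after cisplatin, and with the length and GC trend removed these were -0.53 and -0.46. Pvalb, a proprioceptor calcium-binding protein, was at 68.5 to 70.9 CPM in cisplatin, 71.4 to 81.9 CPM in oxaliplatin and 69.0 to 74.5 CPM in vehicle. Of 14 non-peptidergic neuron markers 9 were lower and 1 was higher after cisplatin and 7 were lower and 1 was higher after oxaliplatin, the lower ones after cisplatin including Mrgprb5 (-1.26) and Gfra2 (-0.62). Of 10 peptidergic markers 3 were higher after cisplatin, Calca (0.38), Calcb (0.24) and Tac1 (0.24), while Trpm8 (-0.93) and Kit (-0.56) were lower. After oxaliplatin 2 were higher and 2 lower. The peptidergic medians were 0.09 for cisplatin and 0.03 for oxaliplatin. Unlike the sums above, the summed peptidergic level was higher after the drugs. It was 2573 to 2780 CPM in cisplatin and 2556 to 2747 CPM in oxaliplatin, against 2212 to 2314 CPM in vehicle. Under library totals the medians for cisplatin were 0.12 for pan-neuronal genes, -0.02 for large neurons, 0.03 for non-peptidergic and 0.39 for peptidergic neurons. The median of all genes was 0.29 under that scaling, so only the peptidergic median lay above it.

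Most lists of non-neuronal markers were higher in the drug libraries, and satellite glia were mixed. Over all genes tested, 15.8% were called higher and 22.9% lower after cisplatin, and 17.5% and 24.1% after oxaliplatin. Of 10 myelin genes 9 rose after cisplatin and 5 after oxaliplatin, and they summed to 5364 to 6618 CPM in cisplatin and 5117 to 5380 CPM in oxaliplatin, against 4020 to 4829 CPM in vehicle. All 8 fibroblast genes rose after cisplatin and 6 after oxaliplatin, with sums of 2578 to 2969 CPM in cisplatin and 2657 to 2865 CPM in oxaliplatin, against 2010 to 2278 CPM in vehicle. Of 9 macrophage genes 8 rose after cisplatin and 7 after oxaliplatin, with sums of 136 to 166 CPM in cisplatin and 145 to 158 CPM in oxaliplatin, against 91.3 to 126 CPM in vehicle. Blood and vessel markers were higher as well. All 7 erythrocyte genes rose after cisplatin (median 1.90) and 6 after oxaliplatin (median 1.83), with sums of 101 to 218 CPM in cisplatin and 86.4 to 211 CPM in oxaliplatin, against 40.4 to 57.6 CPM in vehicle. All 10 neutrophil genes rose after cisplatin (median 1.66) and 9 after oxaliplatin (median 1.21), with sums of 175 to 279 CPM in cisplatin and 91.4 to 209 CPM in oxaliplatin, against 44.7 to 105 CPM in vehicle. Of 8 endothelial genes 7 rose after cisplatin (median 0.65) and 8 after oxaliplatin (median 0.69), with sums of 130 to 167 CPM in cisplatin and 139 to 151 CPM in oxaliplatin, against 84.1 to 104 CPM in vehicle. Of 10 satellite glia genes 3 rose and 3 fell after cisplatin, and 2 rose and 3 fell after oxaliplatin, while their sum was 3193 to 3410 CPM in cisplatin and 3361 to 3558 CPM in oxaliplatin, against 2761 to 3063 CPM in vehicle. Apoe, an apolipoprotein gene of that list, rose (0.28 and 0.40), and the glial potassium channel gene Kcnj10 fell (-0.76 and -0.96). The part of these markers in the levels of the channel genes was not tested.

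Within the 6 genes, the conducting subunits followed one another closely over the 9 libraries. Pearson's r of log2 CPM was 0.97 for Kcnb2 with Kcnc1, 0.97 for Kcnc1 with Kcnc4 and 0.93 for Kcnb2 with Kcnc4, given as a description over libraries that share group and scaling. The silent subunits did not follow each other, with r of 0.04 for Kcns1 with Kcns3, 0.09 for Kcns1 with Kcnv1 and 0.29 for Kcns3 with Kcnv1. Kcnv1 was nearer to Kcnb2 (0.76) than to the other silent subunits. Among 13382 other genes with a mean of at least 1 CPM, with symbols of predicted genes (Gm and Rik) left out, those most like Kcnb2 were Ash1l, Scd1 and Ago3 (r 0.997 each), those most like Kcnc1 were Kdm5c (0.995), Tenm4 and Plxna1 (0.99 each), and those most like Kcnc4 were Phactr1 (0.99), Adar (0.99) and Magi1 (0.98). For the silent subunits the nearest were Inpp5k (0.96), Mcu (0.95) and Tmem57 (0.94) for Kcns1, Mtrr (0.93), Ephb3 (0.93) and BC017158 (0.89) for Kcns3, and Rab9b (0.99), Mctp1 (0.98) and Serinc1 (0.97) for Kcnv1.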

How the data were processed

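Total RNA of 9 pooled ganglion libraries was sequenced, 3 for each of the groups named in the sample labels. The deposited values are raw counts of reads per gene symbol; per the submitters' processing notes, STAR, SAMtools and HTSeq were used on mm10 (GRCm38). The sources used here give no annotation, strand setting or filter. The 5 summary classes for reads without 1 gene, 42.8 to 74.5% of recorded reads, were left out. Symbols were matched to GENCODE M21 (91.4% to 1 gene) for positions and exon lengths.

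All 9 libraries were fitted together with edgeR 4.0.16 (R 4.3.3), with TMM scaling, filterByExpr (17348 genes), the quasi-likelihood F test and Benjamini-Hochberg adjustment over all tested genes. SE was derived from the log2 fold change and its F value, and the floor of 3 reads was 0.0711 to 0.188 CPM. Replicate pools differed by more than counting noise (chi-square over degrees of freedom 4.17 or more). This value was 4.17 to 20.30 for pairs without vehicle library 2. It was 530.02 for vehicle library 2 with vehicle library 1, and 582.94 with vehicle library 3. Reads carry no molecular identifiers, so floors cover counting error only. The genes and lists were chosen with earlier results of these data known. Named genes are all 6 genes, the family and partner genes called or highest, the 2 or 3 smallest p-values of each other channel or neuron list, and the 3 most alike by correlation of log2(CPM + 0.5). Some genes that this rule names are not reported here. Alternatives were median-ratio scaling, library totals, other count filters, DESeq2 1.42.0, limma-voom 3.58.1, fits of 2 groups, a replicate term, removal of the length and GC trend (mgcv 1.9.3), protein-coding genes only, an adjusted p of 0.1 and leaving out each library; joint alternatives without vehicle library 2 were added after the data were seen. The fit was also run on simulated counts, but the settings and outcome are not reported here and no conclusion rests on them.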

Additional observations from a re-analysis of the deposited data

How the results depend on the processing

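Kcnb2 and Kcnc1 stayed below 0 against vehicle under all 21 alternatives, and Kcnc1 was called in each. The count of the 6 genes called for cisplatin was 5 at an adjusted p under 0.1 and 2 to 4 elsewhere. At an adjusted p under 0.1, 3679 of the 17348 genes tested were called higher and 4628 lower for cisplatin. At an adjusted p under 0.05 these numbers were 2744 and 3971. For oxaliplatin the count of the 6 genes called was 2 with library totals alone, and 3 to 4 when 1 library was left out. For cisplatin, genes called over the whole table numbered 5987 higher and 917 lower with library totals alone, and 6049 and 2574 when vehicle library 2 was also left out; leaving out 1 library gave 1787 to 3401 higher, the lowest without cisplatin library 2. For oxaliplatin the numbers were 6408 and 996, 6293 and 2658, and 1941 to 3619 higher, lowest without oxaliplatin library 2 and 1982 without oxaliplatin library 3. Between the drugs, where 2 genes were called higher and 0 lower, library totals gave 30 and 38, no count filter 11 and 5, DESeq2 11 and 4, at least 1 CPM in 3 libraries 1 higher, limma-voom 1, the length and GC trend removed 1 (also 1 without vehicle library 2), and the fit of 2 groups, the replicate block, protein-coding genes and library totals without vehicle library 2 gave 0; leaving out 1 library gave 0 to 2 in each direction. The cause of these shifts was not tested. A replicate block left the called genes at 4 for oxaliplatin and raised them to 4 for cisplatin, where Kcnv1 passed (-0.18, edgeR adjusted p = 0.0408). Same-numbered libraries correlated by -0.14 to 0.11, and libraries of different number by -0.23 to 0.21. The correlations thus showed no pairing by number, but with 3 libraries per group they cannot exclude it. The median gene's 95% interval spanned 0.196 on either side for cisplatin, and smaller changes were mostly not detectable.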
